A study of Mus musculus with 6 samples.

Results

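The genes described here encode the contractile apparatus of striated muscle, the calcium store and energy proteins that serve it, and the natriuretic peptides. Also included are the smooth muscle and non-muscle isoforms of the same protein families. All of these genes were chosen by a rule on symbols, set with earlier results of these data known. It took each single-gene probe set of the myosin heavy and light chain, troponin, alpha-actinin, tropomyosin, myosin-binding protein C, calsequestrin and natriuretic peptide families. It also took those of Acta1, Acta2, Actc1, Ckm, Mb, Atp2a1, Atp2a2, Pln, Sln, Tcap, Csrp3 and Des. This gave 73 probe sets of 55 genes, out of 12422 probe sets that were not controls. Of the 73, 52 probe sets of 40 genes were classed as striated muscle and cardiac, and 15 probe sets of 11 genes as smooth muscle or non-muscle. The other 6 read 4 tropomyosin genes, which make products for both settings. The classes are broad, and the first also holds genes used in other tissues, such as Atp2a2. Pln was not analysed here, and 17 of the 55 genes were read by more than 1 probe set.

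In striated muscle, bundles of myosin pull on actin filaments anchored by alpha-actinin at the Z-disc, and the troponins with tropomyosin open the actin filament when calcium leaves the sarcoplasmic reticulum. Every other cell type builds its cytoskeleton from related myosins, actinins and tropomyosins, so the families hold both tissue-restricted and widely used isoforms. Medullary thymic epithelial cells transcribe many genes that are otherwise restricted to single organs, under partial control of the transcriptional regulator Aire, and muscle antigens such as those attacked in myasthenia gravis are among the self-antigens studied in the thymus.

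The samples were B7.1-high medullary thymic epithelial cells, a costimulatory subset, sorted by flow cytometry from mouse thymus as cells negative for CD45, positive for the epithelial antibody G8.8 and intermediate for CDR1. The wild-type group was 3 pools of B6/129 F2 mice, and the Aire-deficient (aire-/-) group was 3 pools of B6/129 F2 mice in which both copies of the Aire gene had been disrupted. Mice of both groups were 3 to 5 weeks old, each pool combined the thymi of 5 mice of both sexes, and 1 array was hybridised per pool after 2 rounds of T7 amplification. Pooling and the mixed F2 background limit the model, since no value belongs to 1 animal. The comparison of the groups asks which of these transcripts differ in cells without functional Aire.

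Signals are in arbitrary units after quantile normalization. A floor was set at 1.8, the 20th percentile of all arrays together, and no order can be read among signals at it. The 40th percentile, 5.53, is called the dim limit, and a probe set had to exceed it on 3 or more of the 6 arrays to be tested. Group values are geometric means of 3 arrays with their SD in log2 units, and a precision of this kind is bounded by how few arrays there are. Signals of different probe sets are not comparable as amounts of RNA, so each is compared only with itself; sums over a marker list, set side by side between arrays, are weighted toward its brightest probe sets. In bulk samples fewer cells of a type and less RNA per cell cannot be told apart.

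The labelled cell type was checked against its markers. Of 11 medullary epithelial markers 9 were bright enough to test, among them Epcam, the antigen bound by G8.8, at 197 in wild type against 89.2 in Aire-deficient cells (adjusted p = 0.118 in the limma fit, or 0.0315 with the replicate number as a block), and the class II gene H2-Aa at 1980 and 2330. Cd80, the gene of B7.1, was low: it read 5.78, 15.8 and 7.32 in wild type and 12.5, 15.2 and 16.1 in Aire-deficient cells (limma adjusted p = 0.482). The basal keratins Krt5 and Krt14 lay under the dim limit on all 6 arrays. Of 8 granulocyte markers 6 fell (limma adjusted p below 0.05), and their summed signal was 290 to 829 on the wild-type arrays and 64.9 to 95.8 on the Aire-deficient arrays, with no overlap. The sum of the medullary list was 3430 to 4230 on the wild-type and 4960 to 5820 on the Aire-deficient arrays, and that of dendritic cells and macrophages 252 to 384 and 207 to 227. In the last list Cd14 read 148 and 45.9 (limma adjusted p = 0.064, or 0.0055 with the block) and Cd68 read 6.85 and 21.4 (0.067 and 0.0239). The sums of these 3 lists moved with genotype alongside the results below, and the part of the lists in them was not tested. None of the 9 tested medullary and 5 tested dendritic cell and macrophage markers was called in the limma fit. Within both of these lists some markers were higher and others lower in Aire-deficient cells. The ratio of 3' to 5' signal of beta-actin, a sign of RNA quality or amplification, was 95.8 on wild-type array 2 and 4.38 to 13.8 on the other 5 arrays. For Gapdh the same array gave 87.9 and the rest 5.94 to 26.3. Aire itself read 92.7 in wild type against 233 in Aire-deficient cells on its single probe set (limma adjusted p = 0.0918, or 0.0191 with the block), and since the deleted segment is unknown here, this probe set does not check the genotype.

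Of the 52 striated muscle and cardiac probe sets 29 were too dim to be tested. Of the 52, 12 (23.1%) lay above the dim limit on all 6 arrays and 16 (30.8%) on none, against 43.1% and 23.7% of all 12422 probe sets. Of the 15 smooth muscle and non-muscle probe sets 7 (46.7%) lay above the limit on all 6 arrays and 4 (26.7%) on none. Of these striated probe sets 15 exceeded it on more wild-type than Aire-deficient arrays, and 3 on more Aire-deficient arrays. Over all probe sets these shares were 13% and 14.5%, and over the striated ones 28.8% and 5.77%. The smooth muscle and non-muscle probe sets leaned the same way, with 3 of 15 (20%) and 1 (6.67%). Over the 6 tropomyosin probe sets the shares were 16.7% and 33.3%. In a list of 93 probe sets of other striated muscle genes, described further on, 11 (11.8%) exceeded it on more wild-type arrays and 16 (17.2%) on more Aire-deficient arrays. The difference between these shares was not tested.

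**Figure D1:**
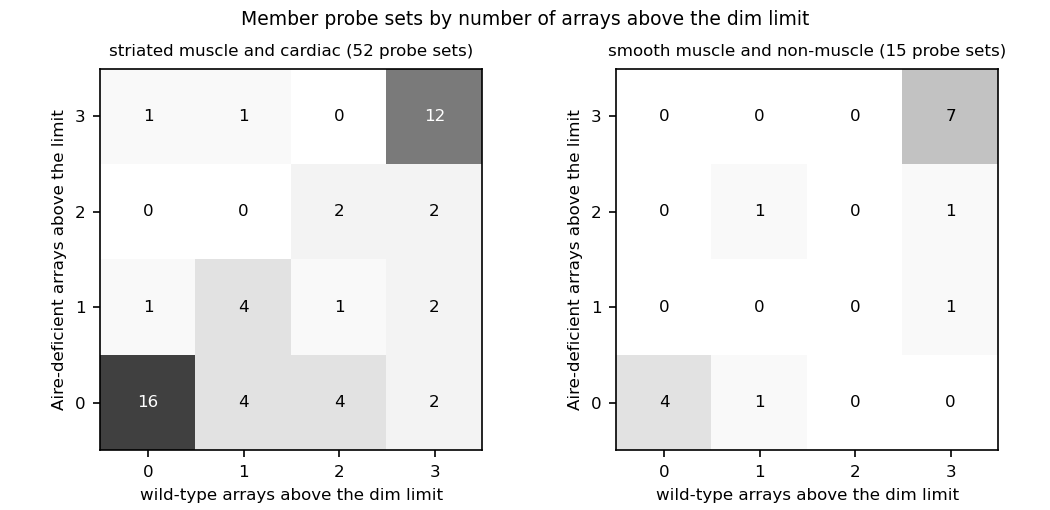
Number of member probe sets by how many of the 3 wild-type arrays (horizontal axis) and 3 Aire-deficient arrays (vertical axis) lay above the dim limit of 5.53, for striated muscle and cardiac genes (left) and smooth muscle and non-muscle isoforms (right). Of 52 striated probe sets 16 were above the limit on no array and 12 on all 6.

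After the filter 38 of the 73 member probe sets, of 34 genes, were tested, and 35 were too dim. In the limma fit 3 of the 38 fell (adjusted p below 0.05 over all 7768 probe sets tested): Acta2, Nppb and Tnnt1. Among all tested probe sets 1.38% were called lower and 0.348% higher by this rule, or 1.73% in either direction. None of the members was called higher. By the unadjusted limma p, 9 members were below 0.05 with lower signals and 4 with higher ones, against 7.81% and 6.44% of all tested probe sets. These counts moved with the fit. With a term for 3' bias they were 6 and 8 of 38, against 568 and 520 of all 7768 probe sets. Without wild-type array 2 they were 4 and 4 of 35, against 431 and 488 of 7349. Without the filter they were 13 and 2 of 73, against 721 and 669 of 12422. In the blocked fit the same 3 were called lower and none higher, against 3.37% and 1.93%. The wild-type and Aire-deficient signals of 10 tested members did not overlap with the Aire-deficient ones lower, and of 2 with the Aire-deficient ones higher. For all tested probe sets these shares were 10.1% and 10.4%. These counts hold for the normalized signals. In the deposited values the groups overlapped for Actc1 (101029_f_at), Myh4 (98488_at) and Myl12b, which are counted here. At least 2-fold and without overlap, 7 members were lower and 1 higher, against 5.27% and 3.99% of all tested probe sets. The fold counted here is that of the floored group means, and it depends on the floor for dim signals. The median log2 difference of the tested members was -0.33, against 0.05 for all tested probe sets. On the deposited values these medians were -0.12 and 0.17, with the term for 3' bias -0.07 and 0.04, and without wild-type array 2 -0.06 and 0.04. Of the 38, 2 passed the filter only through wild-type arrays and 1 only through Aire-deficient arrays, and such probe sets had to differ, so these counts describe the members that passed and not the family as a whole. Over all 73 probe sets, dim ones included, the median was -0.21, against 0 for all 12422.

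**Figure D2:**
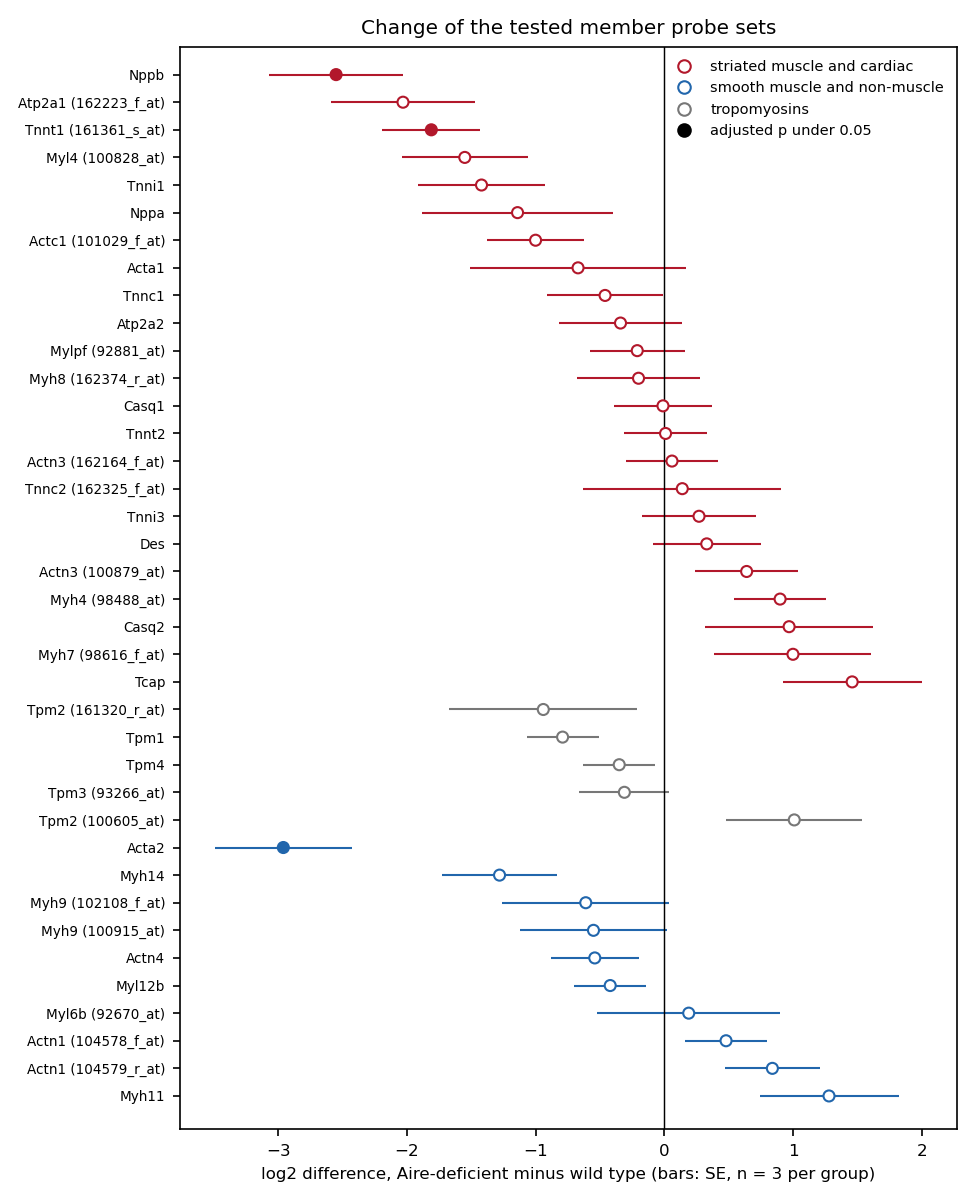
Log2 difference between Aire-deficient and wild-type signals (horizontal axis, bars show the SE, n = 3 arrays per group) of the 38 tested member probe sets, grouped into striated muscle and cardiac genes (red), tropomyosins (grey) and smooth muscle and non-muscle isoforms (blue). Filled points are the 3 called in the limma fit, Nppb, Tnnt1 and Acta2; Tcap and Myh11 lie farthest to the right.

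Acta2, the actin of smooth muscle and of contractile stromal cells, was called lower. Its signal was 15.8, 34.7 and 24.1 on the wild-type arrays. On Aire-deficient array 1 it was under the floor, and on arrays 2 and 3 it was 2.45 and 6.42. The groups did not overlap, and array 3 was the single Aire-deficient array above the dim limit. The mean signal was 23.6 (SD 0.57, n = 3) in wild type against 3.05 (SD 0.96, n = 3), and it fell 7.76-fold (log2 difference -2.96 ± 0.53 SE, limma adjusted p = 0.0234). With 2 Aire-deficient arrays under the dim limit, 1 of them at the floor, the size depends on the floor: the log2 difference was -2.02 with a floor at the 40th percentile and -3.28 at the 10th. The other markers of smooth muscle and pericytes were not called: of 6 listed, Acta2 was the single call, Tagln, a calponin-related protein of smooth muscle, read 10 and 9.11, Rgs5, a pericyte gene, read 19.3 and 15.4, and Cnn1 and Smtn lay under the dim limit on every array. The summed signal of that list was 60.1 to 116 in wild type and 73.9 to 104 in Aire-deficient cells, and Myh11 differed in the opposite direction to Acta2, as described with the myosins. Of 7 tested fibroblast and mesenchyme markers none was called in the limma fit, and they went both ways: without overlap Col1a1 was lower (28.5 and 12.6, limma adjusted p = 0.269) and Lum higher (6.4 and 12.5, limma adjusted p = 0.254). The adjusted p of Acta2 was 0.0557, 0.12 and 0.11 without wild-type arrays 1, 2 and 3, and 0.0928 without Aire-deficient array 2.

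Nppb encodes the precursor of B-type natriuretic peptide, a hormone of the cardiac ventricle. Its signal was 10.5, 16.9 and 11.2 on the wild-type arrays, 3.05 on Aire-deficient array 1 and under the floor on Aire-deficient arrays 2 and 3. All wild-type arrays lay above the dim limit and all Aire-deficient arrays under it, so it passed the filter through wild type alone. The difference was at least 2.28-fold (log2 difference -2.55 ± 0.52 SE, limma adjusted p = 0.0368). A probe set that passes in this way had to differ, and without the filter the adjusted p was 0.0962. Raising the floor to the 40th percentile gave a log2 difference of -1.19 (adjusted p = 0.0542 by limma). Nppa, the atrial natriuretic peptide gene, is the next protein-coding gene to Nppb in the GRCm38.p6 annotation, with none between them. Nppa read 27.9, 40.3 and 18.9 in wild type and 24.1, 28.7 and 2.88 in Aire-deficient cells. Aire-deficient array 3 alone was low, the other arrays overlapped, and the difference was not called (log2 difference -1.14 ± 0.74 SE, adjusted p = 0.532). Nppc, the C-type peptide gene, stayed under the dim limit on all 6 arrays. The adjusted p of Nppb was 0.109 and 0.091 when the second or the third Aire-deficient array was left out. Without any 1 of the wild-type arrays it missed the filter, and with the probe sets of the 6-array filter kept its adjusted p was 0.0937, 0.158 and 0.109.

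Tnnt1 encodes the troponin T of slow skeletal muscle, the subunit that binds tropomyosin. One of its probe sets, 161361_s_at, read 17.5, 25.6 and 27.6 in wild type and 6.87, 9.07 and 4.59 in Aire-deficient cells. The groups did not overlap. The mean signal was 23.1 (SD 0.35, n = 3) in wild type against 6.59 (SD 0.49, n = 3), and it fell 3.51-fold (log2 difference -1.81 ± 0.38 SE, adjusted p = 0.0419 by limma). The second probe set, 101383_at, was too dim to be tested. It read 5.7, 3.97 and under the floor in wild type and 3.62, under the floor and 7.4 in Aire-deficient cells, with no separation of the groups. The suffix of the first marks a probe set that can also bind other transcripts, so the call rests on 1 probe set of this kind. Its adjusted p was 0.082, 0.12 and 0.145 without wild-type arrays 1, 2 and 3, and 0.085, 0.0884 and 0.139 without Aire-deficient arrays 1, 2 and 3.

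For the 3 called genes a term for 3' bias, the mean log2 3'/5' ratio of the beta-actin and Gapdh controls, left the differences at -2.35 for Acta2, -2.42 for Nppb and -1.74 for Tnnt1. The adjusted p was then 0.0551, 0.094 and 0.0868, so that no member was called.

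The sequences upstream of the 3 called genes are shown because their transcripts were lower together. They are the 250 bases before the annotated start, from RefSeq on build GRCm38.p6, 5′ to 3′ on the strand of the gene, at chr19:34255374-34255623 on the minus strand for Acta2, chr4:147985650-147985899 on the plus strand for Nppb and chr7:4515976-4516225 on the minus strand for Tnnt1. Capitals mark every match, on either strand, to TATAAA, to the E-box CANNTG, to CATTCC (the core of the MCAT element of muscle promoters), to GATAA (the core bound by GATA factors), to the MEF2 site and to the CArG box of serum response factor.
Acta2: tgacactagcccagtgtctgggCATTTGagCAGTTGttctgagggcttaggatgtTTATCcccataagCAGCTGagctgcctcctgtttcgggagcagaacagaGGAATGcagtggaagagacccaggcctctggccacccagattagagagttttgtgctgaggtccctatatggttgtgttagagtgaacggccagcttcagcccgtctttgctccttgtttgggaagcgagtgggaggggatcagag
Nppb: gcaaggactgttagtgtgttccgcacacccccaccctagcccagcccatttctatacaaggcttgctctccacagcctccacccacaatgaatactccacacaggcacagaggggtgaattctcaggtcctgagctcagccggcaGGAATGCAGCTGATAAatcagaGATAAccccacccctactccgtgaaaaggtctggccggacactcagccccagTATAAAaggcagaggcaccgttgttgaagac
Tnnt1: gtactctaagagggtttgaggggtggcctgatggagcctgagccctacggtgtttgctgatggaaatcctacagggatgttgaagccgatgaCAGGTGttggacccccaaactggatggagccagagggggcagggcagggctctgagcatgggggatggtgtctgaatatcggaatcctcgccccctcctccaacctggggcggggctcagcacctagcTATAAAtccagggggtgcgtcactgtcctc

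Acta2 held 3 E-boxes, 1 CATTCC and 1 GATAA match. Nppb held 1 CATTCC, 1 E-box and 2 GATAA matches, of which the first 3 lie end to end as 1 run of capitals, the E-box sharing a base with the GATAA after it, and a TATAAA 31 bases before the start. Tnnt1 held 1 E-box and a TATAAA 30 bases before the start. None of the 3 windows held an exact match to the MEF2 site (searched as YTAWWWWTAR) or the CArG box (CCWWWWWWGG). In these patterns W stands for A or T, Y for C or T, and R for A or G. No mismatch was allowed. The stretches ccctatatgg and ccttgtttgg in the Acta2 window each differ from the CArG pattern at 1 base and were not counted, so the count of 0 covers exact matches alone. Windows were found for 48 of the 55 member genes. Of their 59 windows, since a gene can have several starts, 20.3% held TATAAA, 79.7% an E-box, 25.4% CATTCC, 25.4% GATAA, 8.47% a MEF2 site and 11.9% a CArG box. Of all 32851 windows of the same length the shares were 12.4%, 66.2%, 12.6%, 22.6%, 2.92% and 1.47%. No test of these shares was run, and a letter match describes the sequence and is not a binding site.

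The other troponins did not pass the test in either direction. Tnni1, the slow skeletal troponin I that inhibits actin-myosin contact, read 10.1, 12.3 and 7.73 in wild type and 3.42, 5.67 and 2.58 in Aire-deficient cells, without overlap (log2 difference -1.42 ± 0.49 SE, limma adjusted p = 0.212). Tnnc1, the calcium-binding subunit shared by slow and cardiac muscle, read 12, 7.22 and 20.8 in wild type and 10.9, 6.2 and 10.2 in Aire-deficient cells, which overlap. Of the slow skeletal T and I subunits, Tnni1 and the Tnnt1 probe set 161361_s_at lay lower without overlap, and the latter alone was called. The dim second Tnnt1 probe set, 101383_at, did not separate the groups. For the cardiac isoforms the groups overlapped: Tnnt2, cardiac troponin T, read 24.5, 22.3 and 36.1 against 24.1, 27 and 31.1, and Tnni3, cardiac troponin I, read 9.35, 29.1 and 23.8 against 17.1, 25.5 and 25.9. Both log2 differences were smaller than their SE (0.01 ± 0.32 and 0.27 ± 0.44 SE). Tnni3 is the next protein-coding gene to Tnnt1, with none between, and Tnni1 and Tnnt2 are separated by 1 gene. Tnni2 and Tnnt3, also with 1 gene between them, were untested and both overlapped. The difference between neighbours was not tested. The fast skeletal isoforms Tnnt3, Tnni2 and Tnnc2 were dim, with a single probe set of Tnnc2 tested (5.29 and 5.81).

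**Figure D3:**
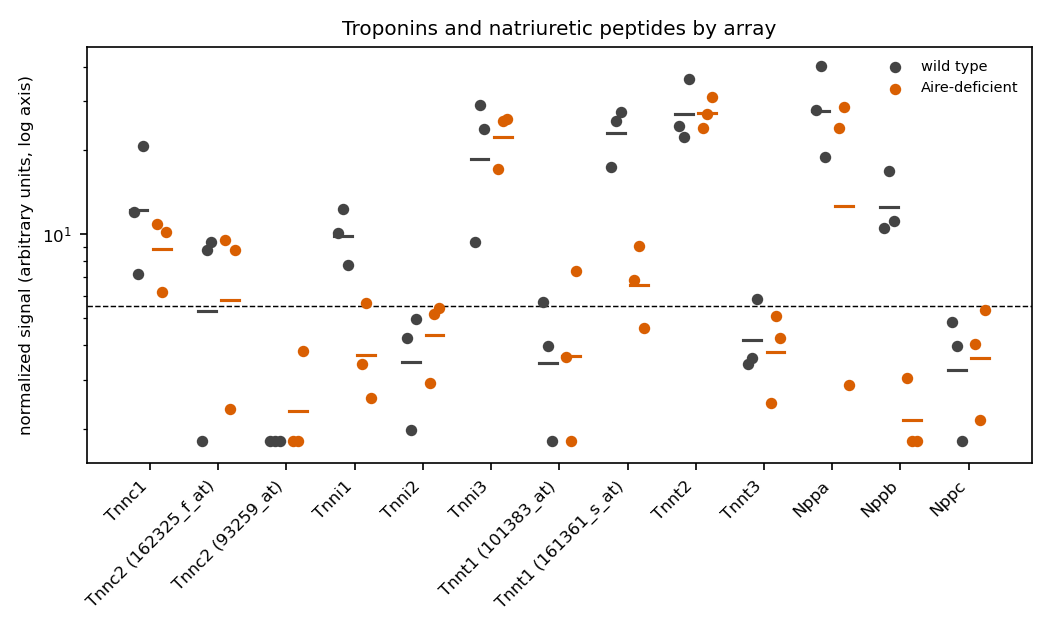
Normalized signal (log axis, arbitrary units) of every troponin and natriuretic peptide probe set on the 3 wild-type (grey) and 3 Aire-deficient (orange) arrays, with bars at the geometric means, signals under the floor of 1.8 drawn at it, and the dim limit of 5.53 dashed. The groups separate for Tnnt1 (161361_s_at), Tnni1 and Nppb and overlap for Tnnt2, Tnni3 and Nppa.

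The sarcomeric myosin heavy chains, the motor proteins of the thick filament, were mostly too dim to test. Of 10 probe sets of 7 genes 3 were tested and 5 lay under the dim limit on every array. Myh4, the fast IIB heavy chain, read 21.6, 11.8 and 14.3 in wild type and 23.5, 40.5 and 24.7 in Aire-deficient cells on the probe set 98488_at. Every Aire-deficient array was above every wild-type array, by a small margin, and the difference was not called (0.9 ± 0.36 SE, adjusted p = 0.289 by limma). In the deposited values the groups overlapped, with 21.9 on wild-type array 1 and 21.8 on Aire-deficient array 1. A second Myh4 probe set was under the dim limit throughout. Myh7, the slow and cardiac beta heavy chain, read 7.2, 32.2 and 23.8 against 15.9, 62.6 and 44.1 on a probe set whose design binds a sequence family (1 ± 0.61 SE, adjusted p = 0.505, or 0.0651 with the block). Each Aire-deficient array was above the wild-type array of its number. In both groups array 1 was the lowest, and the groups overlapped. Its second probe set stayed under the dim limit. Myh3, the embryonic heavy chain, was not tested but separated the groups in the opposite direction. It read 6, 5.07 and 17 in wild type, 3.32 on Aire-deficient array 2 and under the floor on arrays 1 and 3. Myh3, Myh2, Myh1, Myh4 and Myh8 follow each other on chromosome 11 with no protein-coding gene between them. Along that run Myh3 was lower and Myh4 higher without overlap, Myh1 and Myh2 were dim, and the tested probe set of Myh8 read 8.15 and 7.1, with overlap.

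Among the smooth muscle and non-muscle heavy chains no member was called in the limma fit. Myh11, the smooth muscle heavy chain, read 13.6, 17.5 and 54.1 in wild type and 31.2, 80.3 and 73.7 in Aire-deficient cells. Wild-type array 3 reached into the Aire-deficient range (log2 difference 1.28 ± 0.54 SE, adjusted p = 0.31, or 0.0537 with the block). Acta2 and Myh11, which mark the same tissue, therefore differed in opposite directions, the first called and the second not. Myh14, a non-muscle heavy chain of epithelia, read 18.6, 18.4 and 18.2 in wild type and 4.45, 6.38 and 15.5 in Aire-deficient cells. The wild-type arrays nearly coincided and Aire-deficient array 3 lay close under them, so the groups did not overlap (-1.28 ± 0.45 SE, adjusted p = 0.226). Myh9, a widely used non-muscle heavy chain, overlapped on both of its probe sets (50.4 and 34.4, and 41.5 and 27.3), and Myh10 was under the dim limit.

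Of the sarcomeric light chains, Myl4, the chain of atrium and embryonic muscle, gave lower Aire-deficient signals on both of its probe sets. The tested one, 100828_at, read 10.6, 23.1 and 9.15 in wild type and 2.92, 6 and 5.15 in Aire-deficient cells (-1.55 ± 0.49 SE, adjusted p = 0.173 by limma). The second, 160487_at, read 5.15, 12.3 and 6.4 against 4.15, 2.45 and under the floor. Neither overlapped between groups, and the test was not passed. Myl7, the atrial regulatory chain, was also lower without overlap but too dim to be tested, with 7.83, 3.15 and 5.43 in wild type, 1.95 on Aire-deficient array 2 and signals under the floor on the other 2. Mylpf, the fast skeletal regulatory chain, read 9.2 and 7.93 on its brighter probe set, with overlap. Myl1, Myl2, Myl3 and Myl10 were not tested. Among the other light chains Myl12b, a regulatory chain of non-muscle myosin, read 247, 372 and 256 in wild type and 235, 235 and 180 in Aire-deficient cells (-0.42 ± 0.28 SE, adjusted p = 0.54). A probe set annotated to both Myl12b and Myl12a, outside the rule, read 156 and 149. Myl6b read 4.11 and 4.69 on its tested probe set, and Myl6 and Myl9 were not tested.

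**Figure D4:**
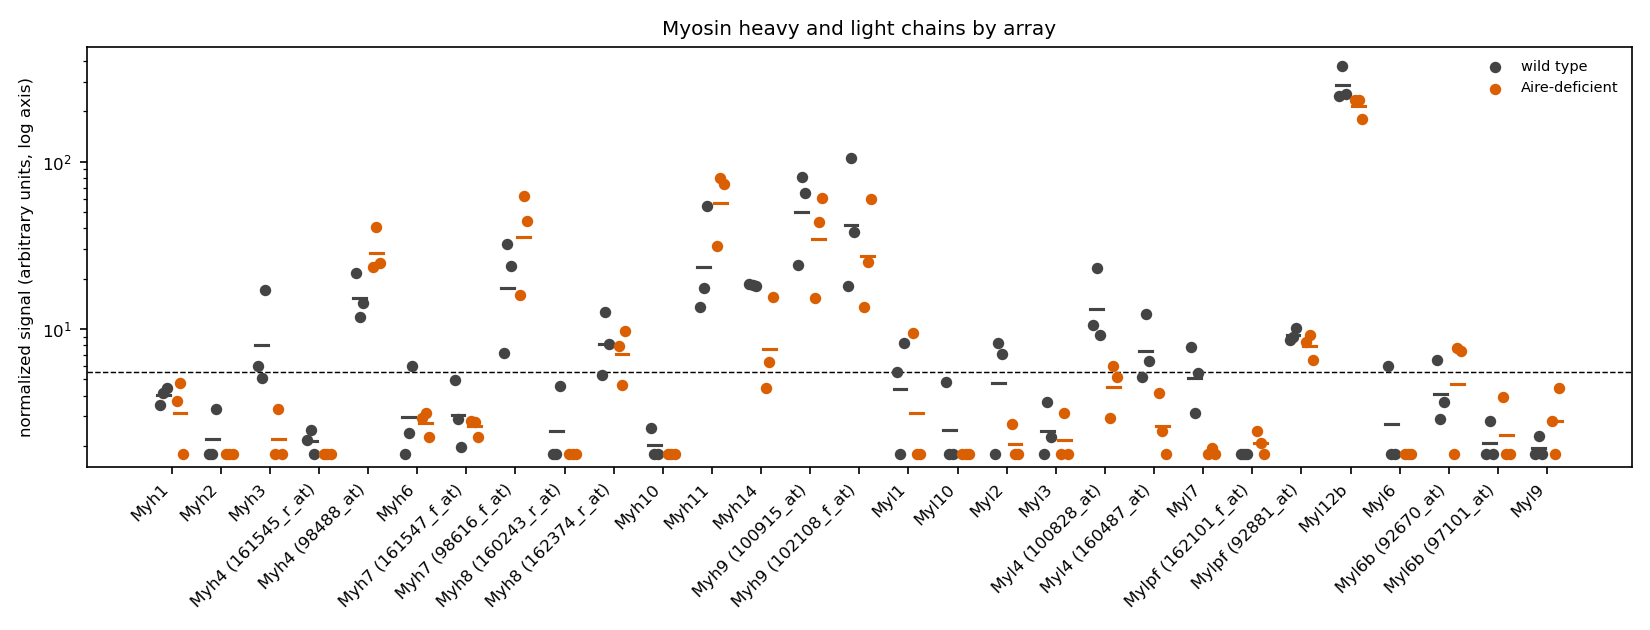
Normalized signal (log axis, arbitrary units) of all myosin heavy and light chain probe sets on the 3 wild-type (grey) and 3 Aire-deficient (orange) arrays, with bars at the geometric means, signals under the floor of 1.8 drawn at it, and the dim limit of 5.53 dashed. Most sarcomeric chains sit near or under the limit; Myh11 averages 23.4 and 56.9, and Myl4 (100828_at) 13.1 and 4.48.

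Of the sarcomeric actins, Actc1 alone lay lower in Aire-deficient cells without overlap, and neither Actc1 nor Acta1 was called. Actc1, cardiac alpha-actin, was read by a family probe set, 101029_f_at, which may also bind other actins. It gave 43.8, 69.8 and 32.1 in wild type and 23.7, 30.4 and 17 in Aire-deficient cells (-1 ± 0.38 SE, limma adjusted p = 0.258). The separation holds after normalization alone: the deposited values overlap, at 43.6, 58.4 and 28.7 against 22, 37.3 and 16.8. A second, dim Actc1 probe set also separated the groups, at 5.45 and 2.2. Acta1, skeletal alpha-actin, read 4.37 and 2.75, with overlap. Of the alpha-actinins, which cross-link actin, the fast-muscle isoform Actn3 read 23.2, 56.5 and 57 against 55.1, 86.1 and 60 on its brighter probe set (0.64 ± 0.4 SE, adjusted p = 0.512), and cardiac Actn2 was under the floor on all 6 arrays. The non-muscle isoform Actn1 read 392 and 546 on a family probe set and 30.6 and 54.9 on another (0.84 ± 0.37 SE, adjusted p = 0.333), and Actn4 read 39.8 and 27.4 (-0.54 ± 0.34 SE, adjusted p = 0.52).

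Tropomyosins lie along the actin filament in muscle and non-muscle cells. Tpm1 was the most even of them: it read 80.1, 84.7 and 75.3 in wild type and 48.6, 41.8 and 48.5 in Aire-deficient cells. The groups stood apart by more than either spread (SD 0.09 and 0.13), yet the 1.73-fold difference did not pass the test over all probe sets (-0.79 ± 0.28 SE, limma adjusted p = 0.224). The 2 probe sets of Tpm2 pointed in opposite directions, 6.61 and 13.3 on one and 5.47 and 2.85 on the other. Tpm3 (34.9 and 28.1) and Tpm4 (175 and 137) overlapped between groups.

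**Figure D5:**
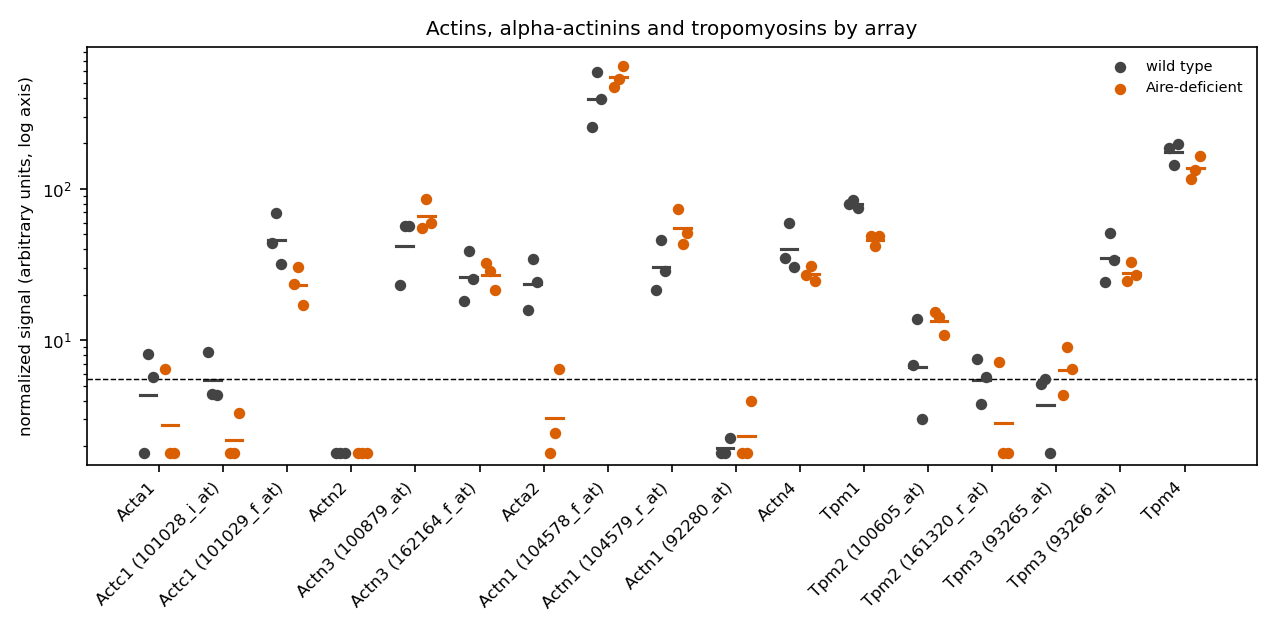
Normalized signal (log axis, arbitrary units) of the actin, alpha-actinin and tropomyosin probe sets on the 3 wild-type (grey) and 3 Aire-deficient (orange) arrays, with bars at the geometric means, signals under the floor of 1.8 drawn at it, and the dim limit of 5.53 dashed. The groups separate for Acta2, Actc1 and Tpm1, while the Actn1 and Actn3 probe sets overlap.

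By the floored group means, the calcium store had 1 member at least 2-fold lower without overlap. Atp2a1, the calcium pump of fast muscle, read 9.85, 13.3 and 6.52 in wild type on the probe set 162223_f_at, and under the floor, 2.35 and 2.98 in Aire-deficient cells. It passed the filter through wild type alone, and taken against the dim limit the difference was at least 1.71-fold. It was not called (-2.03 ± 0.56 SE, limma adjusted p = 0.112, or 0.0399 without the variance trend). A second Atp2a1 probe set was not tested and overlapped, with 16.8 on Aire-deficient array 2. Atp2a2, the pump of heart and most other cells, read 12.3 and 9.69, and the calcium-binding calsequestrins Casq1 (8.26 and 8.2) and Casq2 (3.44 and 6.73) overlapped. Sarcolipin (Sln), which inhibits the pump, was dim apart from wild-type array 1 (5.78) and Aire-deficient array 1 (8.48).

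At the Z-disc and in the energy supply few members were bright. Tcap, the telethonin that caps titin, was the member whose floored mean was at least 2-fold higher in Aire-deficient cells without overlap. It read 5.15, 4.45 and under the floor in wild type and 10.3, 7.55 and 11.1 in Aire-deficient cells, passed the filter through Aire-deficient arrays alone, and was not called (1.46 ± 0.54 SE, limma adjusted p = 0.248). Desmin (Des), the intermediate filament protein of muscle, read 6.9, 11.3 and 6.73 against 6.65, 13.2 and 12. Mybpc3, the cardiac myosin-binding protein C, read 1.98, 11.3 and 13.5 in wild type and was under the floor on all Aire-deficient arrays, but exceeded the dim limit on 2 arrays and was not tested. Muscle creatine kinase (Ckm) was under the dim limit on all 6 arrays on both probe sets, and myoglobin (Mb) exceeded it on Aire-deficient array 1 alone, on 1 of its 2 probe sets (6.65). Csrp3, a cardiac LIM protein, never exceeded it. Of the 35 untested members 5 were lower without overlap and none higher, against 4.13% and 4.1% of all untested probe sets; their dimness kept them from any test.

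By class the counts were as follows, beside 1.38% called lower, 46.9% below 0 and a median of 0.05 over all tested probe sets. Of 23 tested striated probe sets 2 were called lower and 13 lay below 0, with a median log2 difference of -0.2. Of 10 tested smooth muscle and non-muscle probe sets 1 was called lower and 6 lay below 0, with a median of -0.48. Of 5 tested tropomyosin probe sets none was called and 4 lay below 0 (median -0.35). No test of the difference between the classes was run. Without wild-type array 2, the array with the high 3' to 5' ratio, the medians were 0.03 for striated and -0.13 for smooth muscle and non-muscle probe sets, and with the term for 3' bias they were -0.13 and 0.15. When that array was left out but the probe sets of the 6-array filter were kept, both medians were -0.13.

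The 2 lists of other muscle genes outside the families held no call in the limma fit. Among all tested probe sets that fit called 1.38% lower and 0.348% higher, and the blocked fit 3.37% and 1.93%. The lists were not tested against the members. Of 38 tested probe sets of a list of other striated muscle genes, 0 were called in either direction in the limma fit, while unadjusted p fell below 0.05 for 2 with lower and 2 with higher signals, and a median of 0.04. With the block 1 was called, Pfkm, the muscle phosphofructokinase, which read 14.5 and 37.5 (adjusted p = 0.0553 without the block and 0.0215 with it). Chrng, the fetal acetylcholine receptor subunit of muscle, read 9.69, 16.1 and 9.25 in wild type and 5.43, 2.6 and under the floor in Aire-deficient cells (adjusted p = 0.123), while Chrne, the adult subunit that replaces it, read 3.66 and 7.45 (adjusted p = 0.469). Neither of these probe sets overlapped between groups, and they differed in opposite directions, but a second, untested probe set of Chrng read 2.08 and 3.97 and the 2 untested ones of Chrne overlapped. Cacna1s, the voltage sensor of skeletal muscle, read 7.59 and 21.6 (adjusted p = 0.275), and Xirp1, an actin-binding protein of striated muscle, read 3.86 and 8.11 (adjusted p = 0.378), both also without overlap. Of the myogenic regulators, Myog read 35.9 and 32.1 and Myod1 read 12.4 and 10.2, each with overlap. In a list of markers of thymic myoid cells, the muscle-like cells of the thymus, 0 of 4 tested genes were called and the summed signal was 59 to 108 in wild type and 63 to 68.3 in Aire-deficient cells. Of 36 tested probe sets of other smooth muscle and non-muscle contractile genes 0 were called in the limma fit, while unadjusted p fell below 0.05 for none with lower and 2 with higher signals (median 0.06). Those 2 were called with the block: Pdlim1, which joins actin fibres to their anchors (22.2 and 64.6, adjusted p = 0.118 without and 0.00976 with the block, while its second probe set read 9.68 and 9.03), and the actin-binding profilin Pfn2 (29.8 and 77.5, adjusted p = 0.173 without and 0.0328 with it).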

How the data were processed

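The values deposited by the authors are linear signal intensity per probe set, to 1 decimal; the software, correction and scaling behind them: not given in the sources used here. Per the labels, RNA of sorted cells was amplified in 2 rounds. Control probe sets (66 of 12488) were left out. Symbols came from the platform annotation (10833 probe sets with 1 gene, 396 with several, 1193 with none), and all 55 member genes matched GRCm38.p6 by Entrez identifier; that annotation served for names, neighbours and upstream sequences. Arrays were quantile normalized, since their 2% trimmed means spanned 19.6 to 26.9, then floored, filtered and log2 transformed. All 7768 probe sets that passed entered 1 fit (limma 3.58.1 under R 4.3.3; lmFit, then eBayes with a variance trend, 2-sided, Benjamini-Hochberg adjustment over all of them, threshold 0.05). The procedure was tested on simulated data. Figures were drawn with matplotlib 3.10.9.

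Deviations from the group mean gave correlations of 0.372, 0.198 and 0.193 for same-numbered arrays and of -0.253 to 0.0676 for the rest. The labels number the arrays and state no pairing or shared batch. The pairing used for the block comes from these correlations alone. With the block 262 probe sets were lower and 150 higher, against 107 and 27 without it.

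Members, roles and lists were chosen with earlier results of these data known. Named with values were called members, those at least 2-fold different without overlap, all probe sets of their genes, the brightest of each role, and further members to complete families. p-values measure the spread between pools. The alternatives changed the scaling, the floor, the filter or the variance model, or used array weights, 1 probe set per gene, the block, a term for 3' bias and leaving out each array.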

Additional observations from a re-analysis of the deposited data

How the results depend on the processing

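Of the members, 3 were called lower in every alternative scaling, with array weights, with the block and with 1 probe set per gene; the set of 3 was the same there. It was 0 with no filter on dim signals and 0 with the term for 3' bias, and 0 to 2 when 1 array was left out, also with the probe sets of the 6-array filter kept, which was added after the data were seen. No member was called higher under any alternative. With floors at the 10th and 40th percentile Nppb was lost (adjusted p = 0.072 and 0.0542), and without the variance trend Tnnt1 (0.0557). None of the 8 members with a 2-fold difference and no overlap changed direction. Over all probe sets 107 lower and 27 higher became 102 and 71 as deposited and 97 and 55 after median scaling, a share lower of 59% and 63.8% against 79.9%, while the median of all tested probe sets moved from 0.05 to 0.17. They became 10 and 6 without a filter, 166 and 72 with array weights, 262 and 150 with the replicate block, 2 to 76 and 0 to 9 with 1 array left out, and, with the filter kept, 55, 40, 25, 78, 48 and 56 lower and 16, 11, 5, 11, 2 and 11 higher without wild-type arrays 1 to 3 and Aire-deficient arrays 1 to 3. The block changed no call of a member. Members above the dim limit on more wild-type arrays numbered 19, or 17 to 22 in alternatives added after the data were seen, and on more Aire-deficient arrays 6, or 6 to 10, with 7 to 10 when 1 array was left out. The causes were not tested. Low signal limits what can be said of the 35 untested members.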
